A study of Mus musculus with 2 samples.

Results

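The tubulin isotypes described here are 10 genes of the mouse alpha and beta tubulin families, 4 alpha (Tuba1a, Tuba1b, Tuba1c and Tuba4a) and 6 beta (Tubb1, Tubb2a, Tubb2b, Tubb4b, Tubb5 and Tubb6). They were taken by symbol from the 43346 genes of the quantification tables, and all 10 were found. The study sequenced total RNA of G1E, an immortalised mouse erythroid progenitor line labelled Gata1- (lacking the transcription factor that drives red cell maturation), of strain C57BL/6J, sex male and a postnatal donor labelled 0 day. The 2 samples are biological replicates of 1 group, with a starting amount of 1 ng of RNA over 200 nucleotides in size, and ERCC spike-in transcripts were added. No treated, wild-type or rescued cells were analysed here, so the levels describe a single cell line, and replicate 1 was set against replicate 2. The extraction protocol linked in the labels covers G1E and the related ER4 cells. That the replicates came from separate cultures is not stated, and tests between them measure the difference of these libraries only.

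Microtubules are hollow polymers of a heterodimer of alpha and beta tubulin. They pull chromosomes apart in the spindle, carry cargo, and shape blood cells such as the platelet with its marginal band. Mammals encode each subunit in several genes, the isotypes, whose proteins are very alike over the globular body and differ mostly in an acidic tail at the carboxyl end. Glutamates of that tail are sites of glutamylation, and the terminal tyrosine that many alpha isotypes encode can be removed and added back. Cells also adjust tubulin mRNA to free tubulin, through recognition of the first residues of the nascent chain by TTC5. TUBB1 is known as the isotype of platelets and megakaryocytes, and TUBB3, not among the 10, as that of neurons.

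The ends of the coding sequences differ among members, although the printed ends of Tubb2a and Tubb2b encode the same residues. For 5 members, the last 60 coding bases before the stop codon are printed 5′ to 3′ on the coding strand. They are from GENCODE M21 transcripts on GRCm38, with the glutamate codons (GAA and GAG) in capitals.
Tuba4a: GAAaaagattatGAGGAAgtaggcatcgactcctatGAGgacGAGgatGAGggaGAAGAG
Tubb5: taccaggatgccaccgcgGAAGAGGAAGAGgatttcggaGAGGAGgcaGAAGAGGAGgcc
Tubb4b: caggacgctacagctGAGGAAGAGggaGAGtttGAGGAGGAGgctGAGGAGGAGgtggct
Tubb2a: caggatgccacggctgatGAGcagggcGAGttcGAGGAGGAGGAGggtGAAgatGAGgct
Tubb2b: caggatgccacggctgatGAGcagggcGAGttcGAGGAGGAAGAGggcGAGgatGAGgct

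Of these 20 codons, glutamate codons numbered 8 in Tuba4a. Among the beta members they numbered 9 in Tubb5, 10 in Tubb4b, and 8 each in Tubb2a, Tubb2b and Tubb1. Tuba4a ends in a glutamate codon and therefore encodes no terminal tyrosine. At the other end, the first 12 coding bases, with codon 4 in capitals, read atgcgtgagTGC in Tuba1a, Tuba1b and Tuba1c and atgcgcgagTGC in Tuba4a, while Tubb5 and Tubb4b begin atgagggaaATC and atgagggagATC. Codon 4 was TGC in all 4 alpha members and ATC in the 5 beta members whose coding bases were read.

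Some members resemble each other closely, which bears on the values below. Tubb2a and Tubb2b differ at 3 of the last 60 coding bases, all without changing the encoded residue. Over the whole coding sequence Tuba1a and Tuba1b were identical at 98.3% of aligned bases, with an unbroken identical run of 281 bases, and Tuba1b and Tuba1c at 97.9%, with a run of 468 bases. Only 2 of 451 codons of Tuba1a and Tuba1b encode different residues. Tubb2a and Tubb2b were identical at 96.5% of bases, with a run of 551. Tuba4a shared no run over 29 bases with any other alpha member, and Tubb5 and Tubb4b none over 26 with each other. With Tubb2a and with Tubb2b, Tubb5 shared runs of 50 bases and Tubb4b runs of 28. Tubb6 was not compared. Reads from Tuba1a, Tuba1b and Tuba1c, or from Tubb2a and Tubb2b, can therefore fall where the genes cannot be told apart. Tuba4a, Tubb4b and Tubb5 are better separated from the other members compared.

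Replicate 1 held 31649878 estimated counts and replicate 2 held 40597614, and nuclear protein-coding genes took 26.9% of them in replicate 1 and 18.9% in replicate 2. Gm42418, a gene overlapping a ribosomal RNA repeat, took 52.6% in replicate 1 and 40.3% in replicate 2. TPM values (a level per transcript length, scaled to the same sum in each library) ran 1.55-fold higher in replicate 1 for the median of 9161 genes at 1 TPM or more in both libraries, so TPM pairs below carry that shift. The SDs of TPM include it too. The 10 members together had 31610 counts in replicate 1 and 31148 in replicate 2, which is 0.371% and 0.406% of the protein-coding counts. A count of 0 allowed up to 0.0948 CPM in replicate 1 and 0.0739 in replicate 2, from a floor of 3 counts. Counting error is the only error in the intervals and floors, except where the deposited credibility interval is named.

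Markers were read against the label of the line. Gata1 itself had 22.0 TPM in replicate 1 and 12.5 TPM in replicate 2, and gene counts do not show whether that transcript is intact. All 6 genes of erythroid identity were detected, meaning at least 1 TPM in both libraries, led by Car1 (a carbonic anhydrase), Gfi1b (an erythroid repressor) and Tfrc (the transferrin receptor). Of 15 megakaryocyte and platelet genes 4 were detected, with 6 at 0 counts in both libraries, and Pf4, Itga2b and Nbeal2 were the highest. None of 10 neuronal genes was detected and 8 were at 0, with Dcx the highest at 0.470 TPM in replicate 1 and 0.310 in replicate 2. None of 6 lymphocyte genes had a count, and none of 7 fibroblast and endothelial genes was detected. In mast cell genes 2 of 5 were detected, led by Cpa3 with 51.4 TPM in replicate 1 and 24.8 TPM in replicate 2. Over all nuclear protein-coding genes 38.9% were detected and 47.4% were at 0 in both libraries. The mast cell genes detected and the megakaryocyte and platelet genes at 0 lie near those shares.

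Of the 10 isotypes, 6 were detected (60%), against 8345 of 21461 nuclear protein-coding genes (38.9%). These were all 4 alpha members and, among the beta members, Tubb5 and Tubb4b. The other 4 beta members stayed under 1 TPM in both libraries. The 10 were chosen with earlier results of these data known, so setting the shares side by side is not a test. The listed alpha and beta tubulin genes outside the 10 also stayed under 1 TPM in both libraries. The order of mean levels was Tuba1b, Tuba1c, Tubb5, Tuba1a, Tubb4b, Tuba4a, Tubb2b, Tubb2a, Tubb6 and Tubb1.

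**Figure D1:**
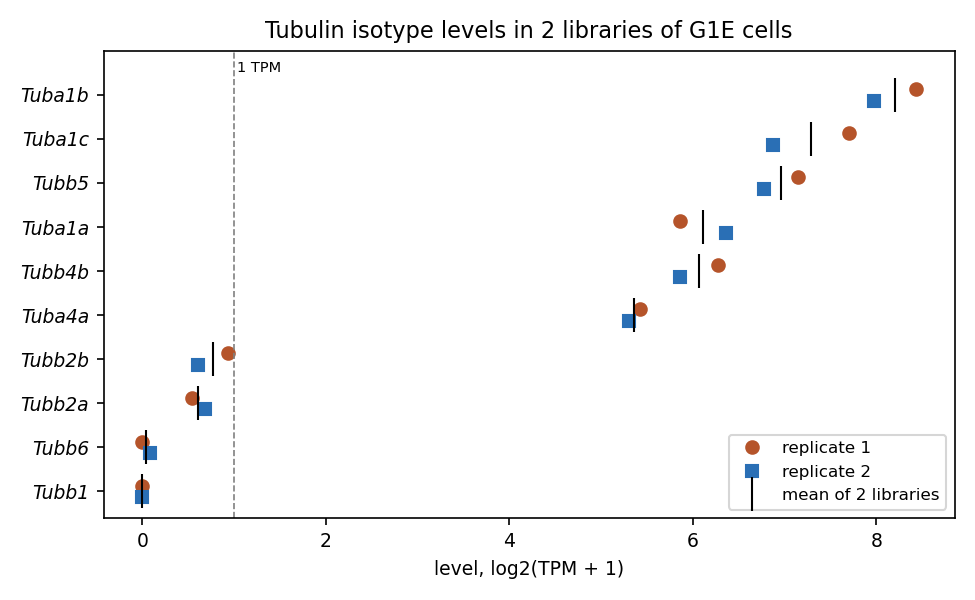
Level of each isotype as log2(TPM + 1) in replicate 1 (circles) and replicate 2 (squares), with the mean of the 2 libraries as a tick and a dashed line at 1 TPM. Detected members lie between 38.5 and 345 TPM, and Tubb2b, Tubb2a, Tubb6 and Tubb1 lie left of the line in both libraries.

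Tuba1b, a widely expressed alpha isotype, was the most abundant member. On chromosome 15 (98931425 to 98934565, minus strand, GRCm38), it had 345 TPM in replicate 1 and 251 TPM in replicate 2, from 11797 and 11905 counts. Its mean of 298 ± 66.8 TPM (SD, n = 2) placed it at rank 60 of the 21461 protein-coding genes. Nearly all of it (99.0% ± 0.750, SD, n = 2) was assigned to its full-length coding transcript, and the rest to an annotated intron-retaining transcript.

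Tuba1c, an alpha isotype on the plus strand of chromosome 15 (99029891 to 99038110), followed. It had 208 TPM in replicate 1 and 116 TPM in replicate 2, from 8225 and 6304 counts, with a mean of 162 ± 65.4 TPM and rank 125. It has a single annotated transcript in the tables. On the log2(TPM + 1) scale Tuba1b exceeded Tuba1c by 0.92 ± 0.27 (SD, n = 2), higher in both libraries.

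Tuba4a, an alpha isotype without an encoded terminal tyrosine, was the lowest detected member by mean TPM. By counts it stood above Tuba1a in both libraries. On chromosome 1 (75214228 to 75219865, minus strand), it had 41.9 TPM in replicate 1 and 38.5 TPM in replicate 2, from 1291 and 1474 counts (mean 40.2 ± 2.36 TPM, rank 682). Its reads were spread over more transcripts than those of any other detected member. The main coding transcript took 55.3% of its TPM in replicate 1 and 43.7% in replicate 2, while an annotated intron-retaining transcript took 28.6% in replicate 1 and 35.3% in replicate 2 (32.0% ± 4.70, SD, n = 2). Of its 8 annotated transcripts, 3 were at 0 counts in both libraries.

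Tubb5 was the main beta isotype. This widely expressed gene of chromosome 17 (35833921 to 35838306, minus strand) had 141 TPM in replicate 1 and 109 TPM in replicate 2, from 7300 and 7776 counts. Its mean of 125 ± 22.4 TPM gave it rank 168. Its main coding transcript took 94.0% ± 0.502 of that level (SD, n = 2) and an intron-retaining transcript 4.65% ± 0.467.

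Tubb4b, also widely expressed, was the only other detected beta member. On chromosome 2 (25222160 to 25224702, minus strand), it had 76.5 TPM in replicate 1 and 57.2 TPM in replicate 2, from 2345 and 2424 counts (mean 66.9 ± 13.6 TPM, rank 354). Its coding transcript took 95.2% ± 0.438 of that level, and a transcript without a coding sequence 4.78% ± 0.438 (SD, n = 2).

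The closely alike genes Tubb2a and Tubb2b, both on chromosome 13 and best known from neurons, were near the limit of detection. Tubb2b (34126748 to 34130466, minus strand) had 0.910 TPM in replicate 1 and 0.520 TPM in replicate 2, from 34.8 and 27.4 counts. Tubb2a (34074274 to 34078007, minus strand) had 0.460 TPM in replicate 1 and 0.600 TPM in replicate 2, from 14.2 and 25.6 counts. Which of the pair was higher changed between the libraries, and their summed counts were 49 in replicate 1 and 53 in replicate 2.

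Tubb6 and the platelet isotype Tubb1 were at or next to 0. Tubb6, on chromosome 18 (67390717 to 67402749, plus strand), had 0 counts in replicate 1 and 3 counts (0.0600 TPM) in replicate 2. Tubb1, on chromosome 2 (174450695 to 174457882, plus strand), had 0 counts in both libraries, which allows up to 0.109 TPM in replicate 1 and 0.0796 TPM in replicate 2. Genes at 0 in both libraries made up 47.4% of the protein-coding genes (10165 of 21461).

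Not every step in this order exceeded the spread of the libraries. Tuba1c and Tubb5 differed by 0.32 ± 0.34 on the log2(TPM + 1) scale (SD, n = 2), Tuba1a and Tubb4b by 0.04 ± 0.65, Tubb2b and Tubb2a by 0.16 ± 0.33, and Tubb6 and Tubb1 by 0.04 ± 0.06, so these neighbours did not differ beyond their spread. Tuba1a and Tubb4b changed places: the difference was -0.42 in replicate 1 and 0.50 in replicate 2. The other 5 steps had the same sign in both libraries and a mean above their SD. With 2 libraries an exact sign-flip test cannot give a two-sided p below 0.5, so none is given.

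Within each class the leading isotype held a nearly constant share of the TPM as deposited. Tuba1b made up 52.9% of the alpha members' TPM in replicate 1 and 51.6% in replicate 2 (52.3% ± 0.950, SD, n = 2). Its share was less even over transcripts typed protein-coding in GENCODE M21 under the member's own gene. On that basis, which drops a short transcript listed under Tuba1a, it was 58.8% in replicate 1 and 63.7% in replicate 2. Tubb5 made up 64.5% of the beta members' TPM in replicate 1 and 65.2% in replicate 2 (64.8% ± 0.527), and Tubb4b 34.9% and 34.1% (34.5% ± 0.582). The remaining alpha shares were less even: Tuba1c held 31.9% in replicate 1 and 23.8% in replicate 2, Tuba1a 8.73% and 16.7%, and Tuba4a 6.42% and 7.92%. Tubb2a, Tubb2b, Tubb6 and Tubb1 together were a trace, none above 0.415% of the beta sum in either library.

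**Figure D2:**
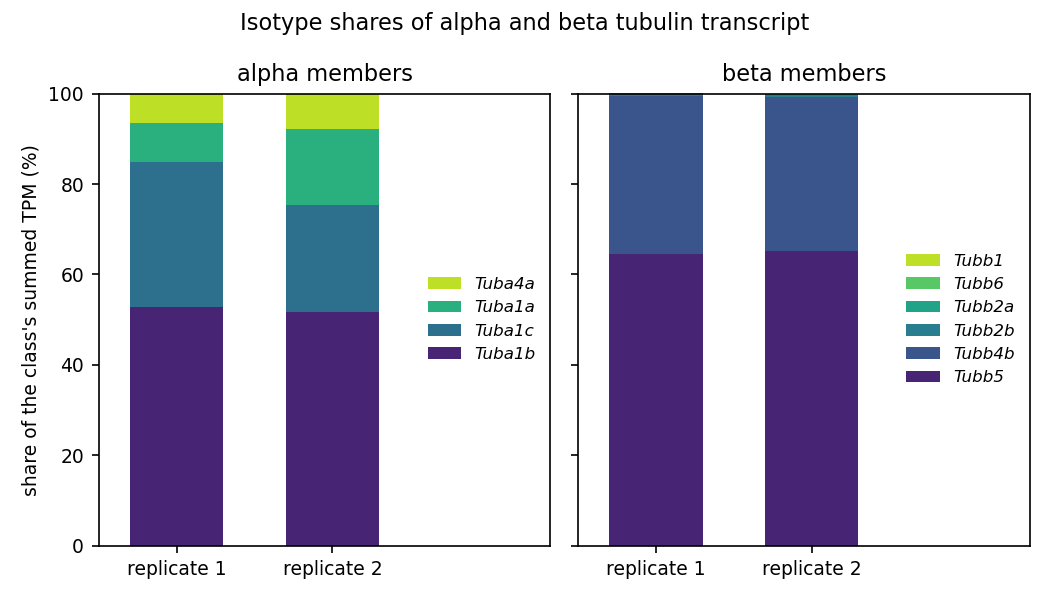
Share of each isotype in the summed TPM of the alpha members (left) and of the beta members (right), in percent, for replicate 1 and replicate 2. Tuba1b and Tubb5 fill the lower part of every bar, at 52.9% and 51.6% of alpha and 64.5% and 65.2% of beta, and the band of Tuba1a is wider in replicate 2.

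Alpha transcript exceeded beta transcript. The 4 alpha members summed to 652 TPM in replicate 1 and 486 TPM in replicate 2, and the 6 beta members to 219 and 168 TPM. The ratio of alpha to beta was 2.98 in replicate 1 and 2.90 in replicate 2 (2.94 ± 0.0576, SD, n = 2). It is a ratio of transcripts over 10 chosen genes, and no protein was measured.

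The value listed for Tuba1a, an alpha isotype best known from developing neurons, lay almost wholly on a transcript other than its own full-length coding one. Tuba1a (chromosome 15, 98949837 to 98953703, minus strand) had 57.0 TPM in replicate 1 and 81.2 TPM in replicate 2, from 603 and 1209 counts (mean 69.1 ± 17.1 TPM, rank 342). Of that level, 99.6% in replicate 1 and 98.1% in replicate 2 lay on a short transcript, ENSMUST00000134214, with 597 and 1139 counts. TPM is a level per transcript length, so the short length of this transcript raised the TPM, rank and share listed for Tuba1a. The full-length coding transcript, ENSMUST00000097014, had 2.90 counts (0.0900 TPM) in replicate 1 and 70.1 counts (1.57 TPM) in replicate 2.

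The short transcript is not a plain Tuba1a form in the later annotation. The deposited tables place it, as a 610-base version, under Tuba1a. GENCODE M21 gives it 899 bases and a gene of its own, Gm49450, whose first 3 exons lie in exons 1 to 3 of Tuba1a (473 bases, 52.6%). Its exon 4 (chromosome 15, 98932137 to 98932562, 426 bases, 47.4%) lies inside the last exon of Tuba1b, a gene that begins 15.3 kb beyond the end of Tuba1a on the same strand. GENCODE M21 thus annotates it as a joined transcript of the neighbours. The counts belong to the 610-base version, whose exons were not read here, so whether the counted version also joins the genes is unknown.

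**Figure D3:**
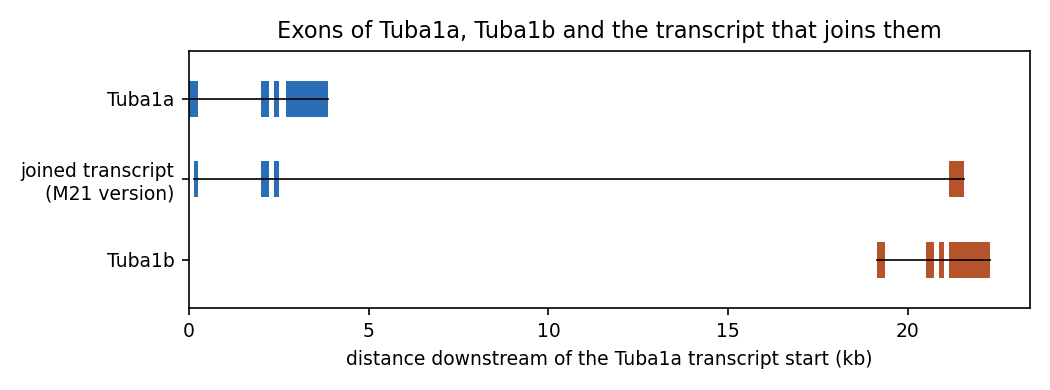
Exons (boxes) of Tuba1a, of the 899-base joined transcript and of Tuba1b in GENCODE M21, by distance in kb downstream of the annotated Tuba1a transcript start. Exons shared with Tuba1a are blue and those shared with Tuba1b orange; exon 4 of the joined transcript begins 21.1 kb downstream, inside the last exon of Tuba1b.

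Over exons 2 to 4, little sequence separates the 899-base joined transcript from its neighbours. Its exon 1, with 101 bases of Tuba1a, was not compared base by base. In BLAST the joined transcript aligned with Tuba1a over 899 bases and with Tuba1b over 802. The junction of exon 3 with exon 4, shown because it is where the joined transcript departs from Tuba1a, has the same 30 bases on either side in Tuba1a, in the joined transcript and in Tuba1b (GRCm38, minus strand):
Tuba1a exon 3 to 4 junction: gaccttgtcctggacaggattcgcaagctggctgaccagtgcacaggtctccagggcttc

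Exons 2 and 3 of Tuba1a and Tuba1b differ at 1 of 223 and 2 of 149 bases. The 426 bases of exon 4 of the joined transcript differ from the matching bases of Tuba1a at 13 positions and from those of Tuba1b at 0. A read lying within these 60 junction bases therefore matches all 3, whichever of them it came from. How many reads were assigned to the 610-base version was the quantifier's estimate. With transcripts typed as protein-coding in GENCODE M21 under the member's own gene, the Tuba1a share of the alpha sum was 0.0156% in replicate 1 and 0.401% in replicate 2, against 58.8% and 63.7% for Tuba1b. On that basis the ratio of alpha to beta was 2.77 in replicate 1 and 2.47 in replicate 2, and Tuba1a was not detected in both libraries.

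Processed pseudogenes share the Tuba1 sequence as well. In BLAST of the transcripts, 5 processed pseudogenes present in the tables were at least 95% identical to Tuba1a, Tuba1b or Tuba1c over at least 300 bases. They took 15.3% of the counts of that sequence group in replicate 1 and 11.1% in replicate 2. Their summed level was 200 TPM in replicate 1 and 99.8 TPM in replicate 2. Beside it, Tuba1a, Tuba1b and Tuba1c summed to 611 and 448 TPM. The alpha sums, the shares and the ratio of alpha to beta leave the pseudogenes out, so those values depend on where these reads belong. Gm17383 had 1824 counts in replicate 1 and 929 in replicate 2, Gm14150 had 1691 and 1332, Gm6682 had 155 and 140, and Gm5620 had 69.2 and 28.6. Gm3756 had under 2 counts in each. Whether their reads came from the pseudogenes or from Tuba1 mRNA was not tested. Tubb4b had 2 such pseudogenes with under 12 counts each, and Tuba4a, Tubb1, Tubb5 and Tubb6 had no near-identical copy.

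**Figure D4:**
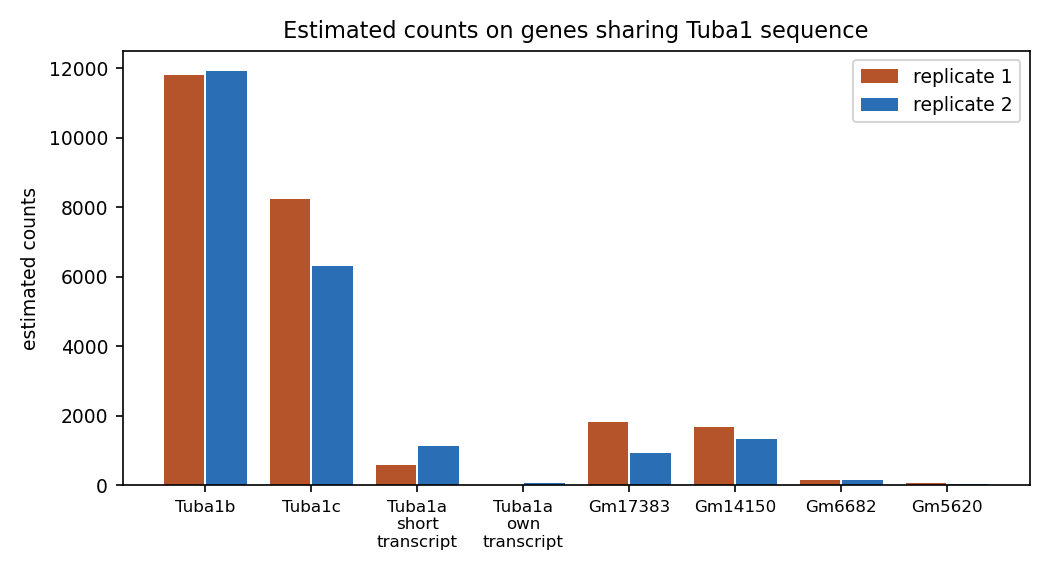
Estimated counts in replicate 1 (left bar of each pair) and replicate 2 (right bar) for Tuba1b, Tuba1c, the 610-base short and the own coding transcript listed under Tuba1a, and 4 processed pseudogenes that share their sequence. Tuba1b holds 11797 and 11905 counts, while the own transcript of Tuba1a holds 2.90 and 70.1.

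The libraries were then compared gene by gene, as the ratio of replicate 1 over replicate 2 after TMM scaling, with a two-sided exact binomial test on the counts. Calling a gene took a ratio of 2-fold or more together with an adjusted p under 0.05 (Benjamini-Hochberg, over the 11902 genes with 10 or more counts in all). Of the 10 isotypes 8 had enough counts, Tubb1 and Tubb6 did not, and 1 was called, Tuba1a, higher in replicate 2. Over all 11902 genes 264 (2.22%) were called higher in replicate 1 and 605 (5.08%) higher in replicate 2, which is 7.30% in either direction. The median log2 ratio of the 8 was -0.23, beside 0.00 for all genes tested, and 75% lay within 1.5-fold, beside 80.3% of all genes.

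Tuba1a, with 603 counts in replicate 1 and 1209 in replicate 2, had a ratio of 0.445 (95% interval 0.403 to 0.491; exact binomial test, adjusted p = 5.63e-61), which is 2.25-fold higher in replicate 2 (2.04 to 2.48). The deposited credibility intervals, which carry the uncertainty of dividing shared reads, allow a scaled ratio between 0.289 and 0.670, so they include values under 2-fold. The 610-base short transcript had a ratio of 0.468 (0.423 to 0.517) and the own coding transcript 0.0382 (0.00770 to 0.116). The call was lost with scaling to total counts (ratio 0.640) and with edgeR's exact negative binomial test (adjusted p = 0.689). That test used a common dispersion of 0.0689, estimated with an intercept only from these same libraries, so the differences between them are part of it.

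The other well-counted isotypes stayed under 2-fold. Tuba1b had a ratio of 0.884 (0.862 to 0.907), Tuba4a 0.781 (0.725 to 0.843), Tubb4b 0.863 (0.815 to 0.914) and Tubb5 0.838 (0.811 to 0.865), all lower in replicate 1. Tuba1c alone among the 6 detected members was higher in replicate 1, at 1.16 (1.13 to 1.20). All 5 intervals lie off 1 and all 5 adjusted p-values were under 0.05 at a fold under 2; at any fold, 15.2% of all genes passed as higher in replicate 1 and 17.2% as higher in replicate 2. With scaling to total counts the ratios of Tuba1b, Tuba4a, Tubb4b and Tubb5 were above 1. With spike-in counts, which put the median log2 ratio of all genes at 4.49, all 8 tested isotypes were above 1, so the directions given here are relative to the bulk of genes. Tubb2a, at 0.480 (0.232 to 0.954), did not pass (exact binomial test, adjusted p = 0.0739), nor did Tubb2b at 1.16 (0.680 to 1.99).

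Counts were also summed over genes that share sequence. Tuba1b and Tuba1c hold most of the Tuba1 counts and so set these sums, which say little about Tuba1a. Tuba1a, Tuba1b and Tuba1c together had 20625 counts in replicate 1 and 19417 in replicate 2, with a ratio of 0.948 (0.929 to 0.966). With their 5 pseudogenes they had 24365 and 21848 counts, with a ratio of 0.995 (0.977 to 1.01). The 5 pseudogenes alone had a ratio of 1.37 (1.30 to 1.45). Among them Gm17383 had a ratio of 1.75 (1.62 to 1.90) and Gm5620 2.12 (1.36 to 3.40). Gm14150 had a ratio of 1.13 (1.05 to 1.22), Gm6682 0.988 (0.781 to 1.25) and the barely counted Gm3756 0.892 (0.0647 to 12.3). Tubb2a and Tubb2b together had a ratio of 0.825 (0.548 to 1.24).

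**Figure D5:**
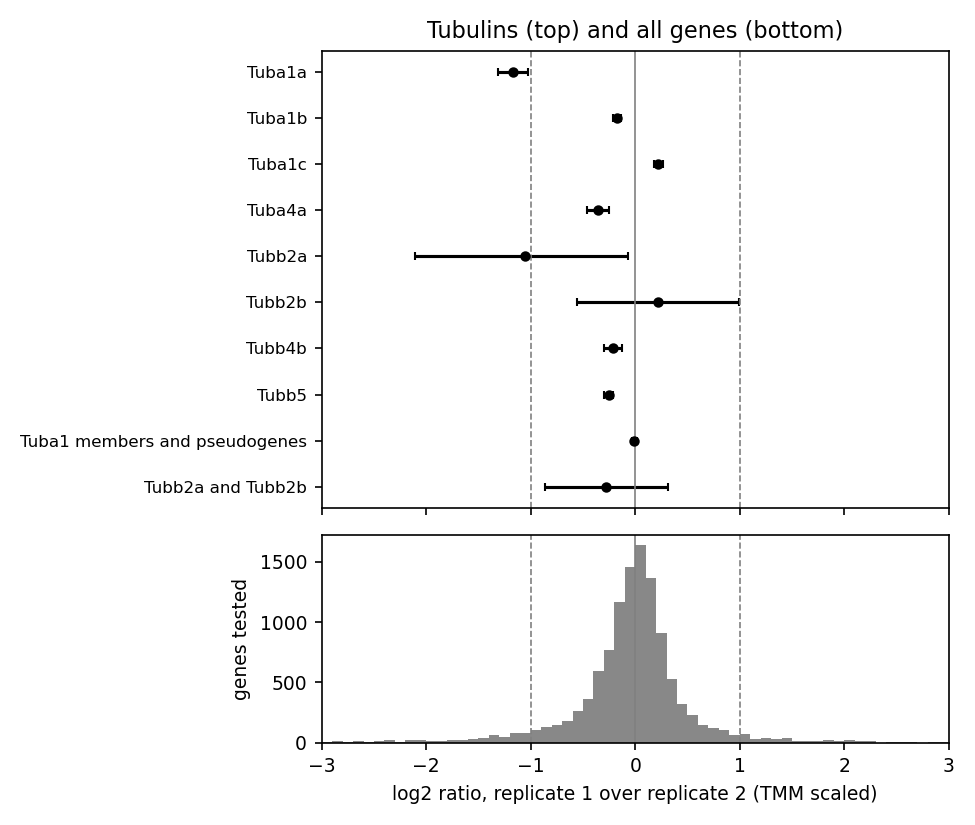
Ratio of replicate 1 over replicate 2 on a log2 scale after TMM scaling, for the 8 tested isotypes and 2 sums over genes that share sequence (points with 95% intervals, top), and the number of genes by log2 ratio for all 11902 tested genes (bottom; values beyond 3 in either direction are not drawn); dashed lines mark 2-fold. Tuba1a lies past the left dashed line at a ratio of 0.445, and the sum over Tuba1 members and pseudogenes lies at 0.995.

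Red cell maturation genes were higher in replicate 2, the direction also of Tuba1a, Tuba1b, Tuba4a, Tubb4b and Tubb5. Tuba1c went the other way, with a ratio of 1.16, and only Tuba1a was called among the detected members. With scaling to total counts Tuba1b, Tuba4a, Tubb4b and Tubb5 were above 1. The maturation list was chosen with earlier results of these data known, so its count is not an independent test. Over all 11902 genes tested, 5.08% were called higher in replicate 2 and 2.22% in replicate 1. Of the 14 listed, 11 were called higher in replicate 2 and 0 in replicate 1, with a median log2 ratio of -2.51, and their summed level was 268 TPM in replicate 1 and 1663 TPM in replicate 2. They included Slc4a1, the red cell anion exchanger (101-fold, 84.2 to 123), Rhd (21.4-fold, 13.7 to 35.4), Alas2 of haem synthesis (8.29-fold, 6.26 to 11.2), Slc25a37, a mitochondrial iron carrier (3.92-fold, 3.70 to 4.15), the membrane skeleton genes Ank1 (3.60-fold, 3.39 to 3.83) and Epb42 (3.79-fold, 2.96 to 4.91), Trim10 (2.17-fold, 1.64 to 2.89) and the 4 globin genes. Their part in the Tuba1a difference was not tested. All 6 genes of erythroid identity stayed uncalled, with a median log2 ratio of -0.13. Among markers of other cells, 1 of 8 tested megakaryocyte and platelet genes was called, Gp1ba with 32 counts in replicate 1 and 10 in replicate 2, as was Pdgfra of the fibroblast and endothelial list with 11 and 0 counts, while 0 of 2 tested neuronal and 0 of 2 tested mast cell genes were. In bulk RNA a different mix of cells and a different level per cell cannot be told apart.

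The genes that fold tubulin were all present. All 21 genes of the folding list were detected and none was called, with a median log2 ratio of -0.02. Beside them, 38.9% of protein-coding genes were detected and 7.30% of all genes tested were called. The 8 subunits of the chaperonin TRiC, which folds newly made tubulin, had mean levels between 27.0 and 96.1 TPM and ratios between 0.970 and 1.09. The highest were Cct5 (117 TPM in replicate 1 and 74.9 TPM in replicate 2), Cct6a (104 and 65.0 TPM) and Tcp1 (94.0 and 56.9 TPM). The 6 prefoldin subunits, which hand tubulin to TRiC, lay between 2.95 and 19.7 TPM, with ratios between 0.645 and 1.05. The 7 genes of the tubulin cofactor group, most of which act in assembling the heterodimer, lay between 1.28 and 9.09 TPM, with ratios between 0.774 and 1.54.

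The 3 genes of tubulin mRNA autoregulation were also detected and uncalled. Ttc5, which reads the first residues of nascent tubulin, had 4.15 TPM in replicate 1 and 2.69 TPM in replicate 2. Scaper, which links it to the CCR4-NOT deadenylase, had 2.65 and 1.86 TPM, and Cnot11, a subunit of that complex, 9.72 and 6.01 TPM. The ratios of these 3 genes lay between 0.918 and 1.01.

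Genes of tubulin modification, which act on the tails or on other sites of the subunits, were detected in part. Of 26 listed, 11 were detected, 12 were at 0 counts in both libraries, and 1 of 13 tested was called, with a median log2 ratio of -0.06. These counts lie near the shares over all genes. Of protein-coding genes 38.9% were detected and 47.4% were at 0, and 7.30% of all genes tested were called. Agtpbp1, a deglutamylase, was highest with 22.7 TPM in replicate 1 and 13.3 TPM in replicate 2, followed by the glutamylase Ttll4 (12.9 and 9.16 TPM) and Ttll12 (11.4 and 8.46 TPM). Ttll10, a glycylase, was the called gene, with 0 counts in replicate 1 and 13 in replicate 2. Ttl, the ligase that adds the terminal tyrosine back to alpha tubulin, was among the 12 listed at 0 counts and is named here after its value was seen.

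Nucleation and microtubule binding genes were mostly present. All 18 nucleation genes were detected and none was called (median log2 ratio 0.02); Mzt1, a small partner of the gamma tubulin ring complex, was highest with 69.5 TPM in replicate 1 and 38.4 TPM in replicate 2, then the ring subunits Tubgcp4 (15.7 and 9.91 TPM) and Tubgcp3 (14.1 and 8.24 TPM). Of 21 binding and severing genes 16 were detected and 1 of 18 tested was called (median log2 ratio -0.10). For both lists the shares to compare are 38.9% of protein-coding genes detected and 7.30% of all genes tested called. Tpx2, a spindle assembly factor, had 65.4 TPM in replicate 1 and 34.4 TPM in replicate 2, Stmn1, which sequesters tubulin, 40.8 and 22.9 TPM, and the depolymerase Kif2a 37.5 and 22.0 TPM. The called gene was Fign, a severing enzyme, with 0 counts in replicate 1 and 29 in replicate 2.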

How the data were processed

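Each library came with a gene and a transcript table. Per the file headers, the authors deposited expected counts, TPM, FPKM, posterior mean TPM, lower and upper credibility bounds of TPM whose level is not stated, and, for each transcript, the percent it takes of its gene. The maximum-likelihood TPM used here can lie outside bounds set around the posterior mean. The labels give mm10, and the deposited file records name GENCODE M4 as annotation. No aligner or quantifier is named in either. Counts are not whole, since reads shared by similar genes are divided by estimate.

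GENCODE M21, a later annotation of the assembly (GRCm38, or mm10), supplied names, types, positions and sequences, and 42462 of 43346 genes matched on the unversioned identifier. For each member the most abundant transcript with a coding sequence that GENCODE M21 marks as complete was read. For Tuba4a this was ENSMUST00000186213, since its more abundant ENSMUST00000079464 is marked incomplete at the start. No coding bases are shown for Tubb6, and some coding ends are not reported here. The 96 spike-in entries and 26248 entries named by a number stayed out of gene tests.

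Levels were described because the labels give 1 group. Detection meant at least 1 TPM in both libraries, and logarithms used a pseudocount of 1. Neighbours in the order were separated if the log2 difference kept its sign in both libraries and its mean exceeded its SD. Counts were rounded and compared by an exact binomial test against the ratio of TMM effective sizes (that of replicate 1 was 1.12 times that of replicate 2). Intervals were Clopper-Pearson at 95%, and a count of 0 was given a floor of 3 counts. Near-identical copies needed 95% identity over 300 bases in BLAST 2.17.0. Tools were R 4.3.3, edgeR 4.0.16, DESeq2 1.42.0, Python 3.11.15, NumPy 2.4.6, pandas 2.3.3, SciPy 1.17.1 and matplotlib 3.10.9.

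The members, 6 microtubule gene lists and 7 marker lists were chosen with earlier results of these data known. Named were all members, every called gene and the 3 with the highest mean TPM of each microtubule list, the highest 3 of marker lists with detected genes, called genes of a list that moved with a called tubulin, and copies with a mean of at least 10 counts.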

Additional observations from a re-analysis of the deposited data

How the results depend on the processing

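No paired analysis was possible because the labels define 1 group. With 2 libraries, leaving 1 out returns the values of the other, so the ranges that follow add no separate check. The Tuba1b share of alpha TPM ranged over 51.6% to 52.9% and the Tubb5 share of beta TPM over 64.5% to 65.2%. Alpha over beta ranged over 2.90 to 2.98. In either library alone 6 members were detected, and this could not be fewer because detection already required both. The ratio between libraries needs both. FPKM, posterior mean TPM and all annotated alpha and beta genes left both shares and alpha over beta within 1 SD. The annotated genes were matched by symbol, which leaves out the 5 processed pseudogenes of Tuba1. CPM with no length correction gave 55.4%, 75.6% and 2.15. Transcripts typed protein-coding in GENCODE M21, chosen after seeing the data, gave 61.3% for Tuba1b and 2.62 for alpha over beta, and 5 members detected. The 264 and 605 genes called higher in replicates 1 and 2 became 1021 and 396 with total counts, 11608 and 36 with spike-in counts, 472 and 941 at a 1.5-fold limit, and 33 and 263 with edgeR's exact negative binomial test. Tuba1a remained the called member with DESeq2 size factors, TMM over protein-coding genes, no minimum count and the 1.5-fold limit. It was also called with coding transcripts, but there the call rests on a different transcript. That was its full-length coding transcript, with 2.90 counts in replicate 1 and 70.1 in replicate 2 (ratio 0.0382). Called members numbered 0 higher in replicate 2 with total counts, spike-in counts and the negative binomial test (in which 1, Tuba1a, had an unadjusted p under 0.05, at 0.0344), and 8 higher in replicate 1 with spike-in counts. Total counts moved the median log2 ratio of all genes to 0.52, and the ratios of Tuba1b to 1.27, Tuba4a to 1.12, Tubb4b to 1.24 and Tubb5 to 1.20, with Tuba1a at 0.640. Spike-in counts (514 in replicate 1 and 10351 in replicate 2) moved the median to 4.49 and the ratios of Tuba1a to 10.04, Tuba1b to 20.0, Tuba4a to 17.6, Tubb2a to 10.8, Tubb4b to 19.5 and Tubb5 to 18.9. The cause of the spike-in difference was not tested. Depth limits Tubb2a, Tubb2b, Tubb6 and Tubb1, with at most 34.8 counts in a library.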

Other observations

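Tubulin genes outside the 10 isotypes were mostly low. Of 10 listed, 3 were detected and 5 were at 0 counts in both libraries, the neuronal Tubb3 among them, and none of 4 tested was called (median log2 ratio 0.01). Among protein-coding genes 38.9% were detected and 47.4% were at 0. Tubg1, the gamma tubulin of the nucleating ring, had 8.30 TPM in replicate 1 and 5.63 TPM in replicate 2. Tube1 and Tubd1, the epsilon and delta tubulins of centrioles, had 3.78 and 2.84 TPM in replicate 1 and 2.47 and 1.56 TPM in replicate 2. Tubb4a, a beta isotype best known from brain, had 0.890 TPM in replicate 1 and 0.570 TPM in replicate 2, near the levels of Tubb2a and Tubb2b, and is named after its value was seen.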
